A study of Schistosoma mansoni with 6 samples.

Results

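The genes described here encode the ubiquitin and proteasome machinery of the blood fluke Schistosoma mansoni. They were taken from the deposited table by product name: every gene row with exons whose name contained ubiquitin or proteasome, leaving out names with ribosomal, kinase or zinc finger. This gave 114 genes of 10770. All came from adult male worms of the NMRI strain, perfused from mice 43 days after infection and kept in Basch medium 169 for 48 hours after either 200 Gy of gamma rays from a cobalt source or a mock exposure. Only posterior somatic tissue was used, since head and testes had been cut away, and each library was a pool of 14 to 18 worms. Each group had 3 libraries, lettered A, B and C. No label tells if the pools stem from different infections, and a p-value here covers no more than the variation among pools.

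Ubiquitin is a small protein that cells attach to other proteins in a relay. An activating enzyme (E1) charges it, a conjugating enzyme (E2) carries it, and a ligase (E3) chooses the substrate and helps place the ubiquitin there, while deubiquitinating enzymes take it off again. Chains of ubiquitin send many proteins to the proteasome, whose barrel-shaped 20S core digests them and whose 19S cap recognises, unfolds and feeds them in, and the same relay runs in the control of the cell cycle and the answer to DNA damage.

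A library held 17577059 to 29641087 exon reads, so that 3 reads, the most that a count of 0 allows, stood for 0.101 to 0.171 CPM (read counts scaled to a common library size). Of the tissue markers, MEG-4 of the head had 5 reads and the eggshell precursor 26 over all 6 libraries, but MEG-6, another head marker, was high in controls, at 1146 ± 41.3 CPM (SD, n = 3), and in irradiated worms, at 1159 ± 25.2 CPM. All 4 stem-cell markers (ago2-1, nanos-2, fgfrA and fgfrB) were called lower in irradiated worms, with log2 fold changes of -0.97 to -2.89. The 3 tegument markers were called higher (0.32 to 0.48), and titin and paramyosin of muscle lower (-0.41 and -3.50). Titin has 10966 bases of exon. With the exon length trend described below taken out, its change was -0.12 and not called (edgeR adjusted p = 0.177). Paramyosin was weakly expressed, at 5.44 CPM in controls. Of the 2 gut markers the peptidase was called lower (-0.29) and saposin was not called (0.01). The 2 egg antigens were not called (-0.03 and -0.15). The part of these shifts in the results below was not tested, and fewer cells of a type and less RNA per cell cannot be told apart in such bulk samples.

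In the level per exon length (RPKM, the authors' reads per length of exon and per depth of the library), the ubiquitin genes and the proteasome stood above the enzymes that choose substrates. The control median was 191.9 RPKM over the 4 ubiquitin and modifier genes, 97.7 over the 30 tested proteasome genes, 85.4 over the 22 E2 genes and 42.7 over the 6 E1 genes. It was 25.1 over the 24 tested E3 ligases and 19.9 over the 20 tested deubiquitinating enzymes, beside 23.5 over all 8885 tested genes. These medians have no test, and the classes overlapped widely.

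Levels within a class differed widely. Of the genes named plainly as ubiquitin, Smp_017280 was the higher, at 374 RPKM in controls, and Smp_120630 stood at 107 RPKM. The SUMO gene Smp_045510, a ubiquitin-like tag, stood at 253 RPKM, although 81.5% of its reads were unique and the rest may belong to a similar copy. The E1 gene Smp_162630 stood at 186 RPKM, far above the other 5 E1 genes, which ran from 17.4 to 49.0 RPKM. Among E2 genes an E2 G (Smp_028100) was highest at 259 RPKM, and the E2 genes covered a 30.8-fold range. Among ligases the nedd-4-like gene Smp_123180 was highest at 67.3 RPKM. Among deubiquitinating enzymes USP7 (Smp_089180), which in human cells acts on the p53 pathway, was highest at 113 RPKM, followed by USP5 (Smp_069960), which takes free ubiquitin chains apart in human cells, at 103 RPKM.

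The beta subunits of the proteasome core were the most even class. These 7 genes, whose products include the catalytic ones, ran from 87.0 to 224 RPKM in controls, a 2.57-fold range. The 7 alpha subunit genes, whose products form the gated outer rings, covered a 34.1-fold range, but this rested on Smp_130110. That gene is 1 of a pair annotated as alpha 6 that follow each other in the RefSeq gene order. It stood at 5.59 RPKM against 99.9 RPKM for its neighbour Smp_207080, and both had fewer than 90% unique reads (85.4% and 89.6%). Without Smp_130110 the 13 other core genes spanned 3.27-fold. In the cap, the ubiquitin receptor S5a (Smp_000740) was highest at 268 RPKM and the other 10 non-ATPase cap genes ran from 40.8 to 156 RPKM.

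**Figure D1:**
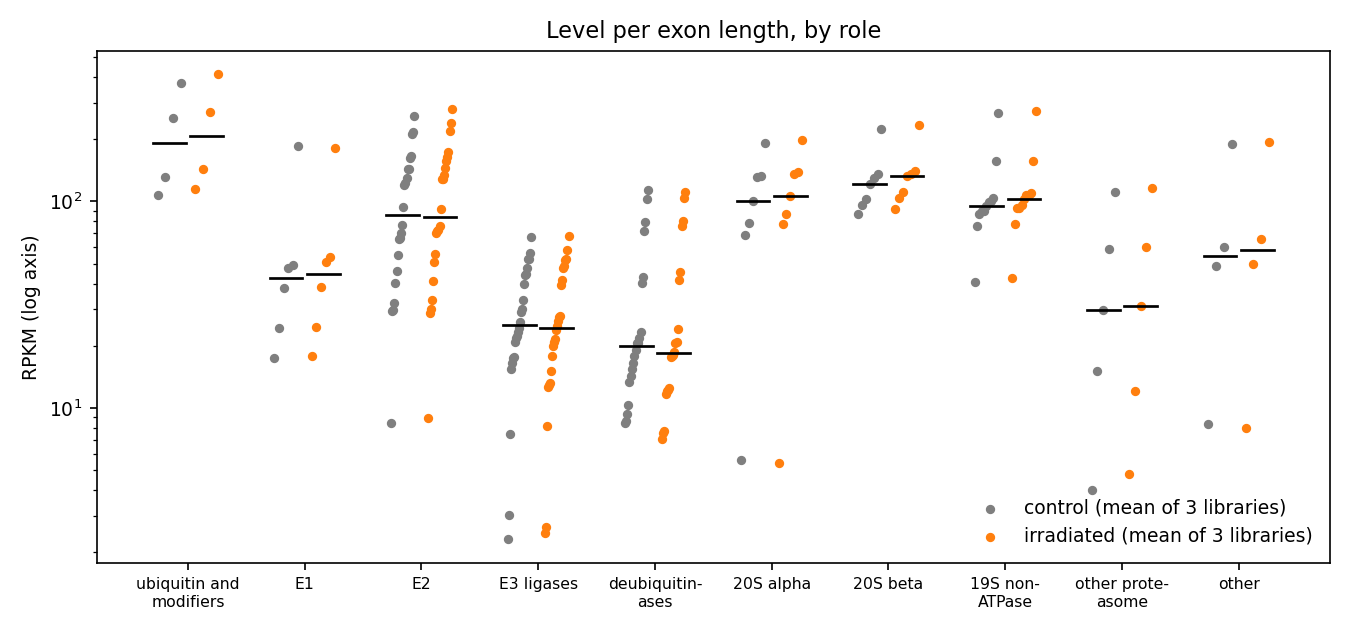
Level of each tested gene in RPKM (log axis), as the mean of 3 control libraries (grey) and of 3 irradiated libraries (orange), by role, with the class medians as black bars. The E3 and deubiquitinating classes have medians of 25.1 and 19.9 RPKM in controls, the 7 beta subunits of the core one of 121.9, and grey and orange points of a class cover nearly the same range.

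To see whether this machinery moved with irradiation, exon read counts were compared between the groups with edgeR's quasi-likelihood test over all 8885 tested genes, and a gene was called at a Benjamini-Hochberg adjusted p under 0.05. Few ubiquitin and proteasome genes passed the test. Of 110 tested, 2 were called lower, a ligase and the deubiquitinating enzyme USP44, and 0 were called higher. That is 1.82% called lower, near the 2.49% over all tested genes, where 0.619% were called higher. At an unadjusted p under 0.05, 14 were lower (12.7%, beside 13.3% over all genes) and 4 were higher (3.64%, beside 8.27%); DESeq2 called 6 lower (5.51% of all genes) and 0 higher.

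The remaining 4 genes had too few reads to test. Smp_025690 (a 26S proteasome subunit), Smp_144460 (a ubiquitin fusion degradation protein) and Smp_152780 (an E3a ligase) had 0 exon reads, and Smp_188070 (a ubiquitin hydrolase) had 2.

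The spread of the changes was narrow. The log2 fold change, irradiated over control, ran from -0.49 to 0.24, with 75 of the 110 genes between -0.1 and 0.1 and 7 beyond 0.3 in size. Of all 8885 tested genes 4802 lay between -0.1 and 0.1 and 1011 beyond 0.3. The median was 0.02, beside 0.00 for all tested genes. The median standard error was 0.06, beside 0.07 for all tested genes, whose control median was 23.5 RPKM against 52.4 here. How far precision narrowed the spread was not tested. In 10 genes (9.09%) every irradiated library lay below every control library, and in 9 (8.18%) every one lay above, beside 13.3% and 12% over all tested genes. Summed over the tested genes, the machinery took 15368 to 15464 CPM in the control libraries and 15140 to 15315 CPM in the irradiated ones. The 6 genes with at least 6000 bases of exon took 1105, 1345 and 1210 CPM of this in controls A, B and C. In irradiated A, B and C they took 824, 1076 and 832 CPM. The 30 proteasome genes took 4860, 4668 and 4763 CPM in controls and 5060, 4691 and 4924 CPM in irradiated libraries, which overlap.

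**Figure D2:**
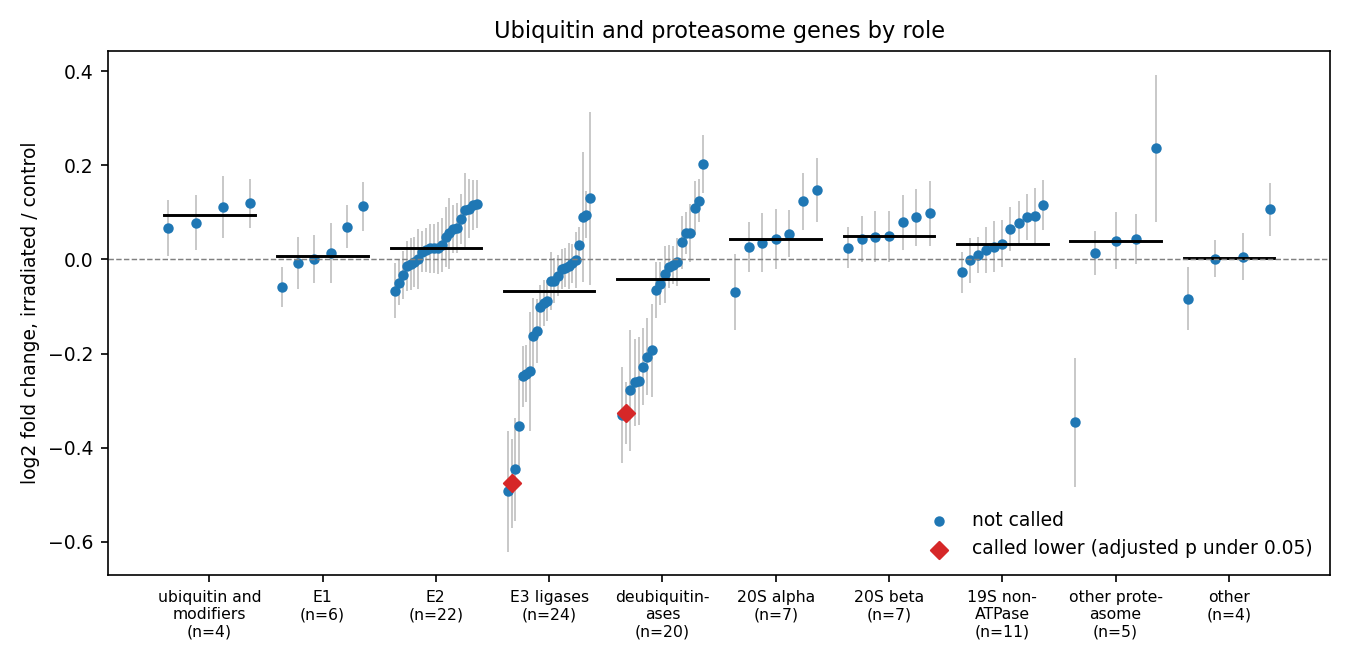
Log2 fold change (irradiated over control) of each tested gene with its standard error (grey line), by role, with class medians as black bars; n is the number of genes. The 2 called genes, a ligase and USP44, are red diamonds, and the points below -0.2 are ligases or deubiquitinating enzymes, apart from ecm29 among the other proteasome genes.

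The class of E3 ligases held the lowest values. Of 24 tested ligases 1 was called lower (4.17%) and 0 higher, beside 2.49% and 0.619% of all tested genes. A single call is thus near the background. In 20 ligases the log2 fold change was below 0, and the class median was -0.07. Of all tested genes 4382 of 8885 lay below 0, and 41.1% to 94.5% in the length classes from 1000 bases of exon up. In 8 ligases (33.3%) the irradiated libraries lay below all controls, beside 13.3% of all tested genes. That share was 19.1% to 40.3% in the length classes from 2000 bases of exon up.

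Several long ligases fell short of the threshold. The largest gene of the machinery, Smp_167690, named only as a ubiquitin-protein ligase, read 412, 510 and 447 CPM in controls and 307, 395 and 302 CPM in irradiated worms. The groups did not overlap, but irradiated B came within a few percent of control A (-0.45, SE 0.11, adjusted p = 0.0640). The E3a ligase Smp_172420, whose human namesake is the founding HECT ligase, read 169, 223 and 190 CPM in controls and 124, 166 and 123 CPM after irradiation, a change of -0.49 (SE 0.13, adjusted p = 0.0739). Smp_176060, related to the E3 alpha ligases that in human cells read the first residue of a protein, read 191, 217 and 210 CPM against 144, 191 and 149 CPM, a change of -0.35 (SE 0.10, adjusted p = 0.0903). In each of these genes library B was the highest of its group, in controls and in irradiated worms alike.

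The nedd-4 pair showed a different pattern, with smaller changes and shorter exon lengths. Nedd-4 ligases mark membrane proteins such as channels and receptors for removal. Smp_175650 read 56.2, 61.5 and 62.1 CPM in controls and 49.1, 53.6 and 49.3 CPM after irradiation, and its neighbour in the RefSeq order, Smp_207020, read 32, 35 and 36.1 CPM and 29.2, 29.6 and 27.8 CPM. Neither gene's groups overlapped. The changes were -0.24 (SE 0.06, adjusted p = 0.0640) and -0.25 (SE 0.06, adjusted p = 0.0738). The neighbours share a name. Of the reads of Smp_207020 74.9% were unique, and unique reads alone gave -0.24 for both genes. The nedd-4-like ligases Smp_123180 and Smp_165260 had changes of -0.02 and -0.01.

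Other ligases stayed closer to 0. The 7 genes annotated as BRE1, which with the E2 Rad6 places ubiquitin on histone H2B in yeast, had changes of -0.24 to 0.13 and a median of -0.03; none was called. Sina (Smp_000650), a RING ligase first known from fly eye development, read 74.3, 73.4 and 75.5 CPM against 70.8, 69.5 and 69.6 CPM, without overlap but with a change of only -0.09 (SE 0.04, adjusted p = 0.273). The E3a gene Smp_168160 was the 1 ligase whose irradiated libraries all lay above the controls, by 0.03 on the log2 scale (adjusted p = 0.694).

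**Figure D3:**
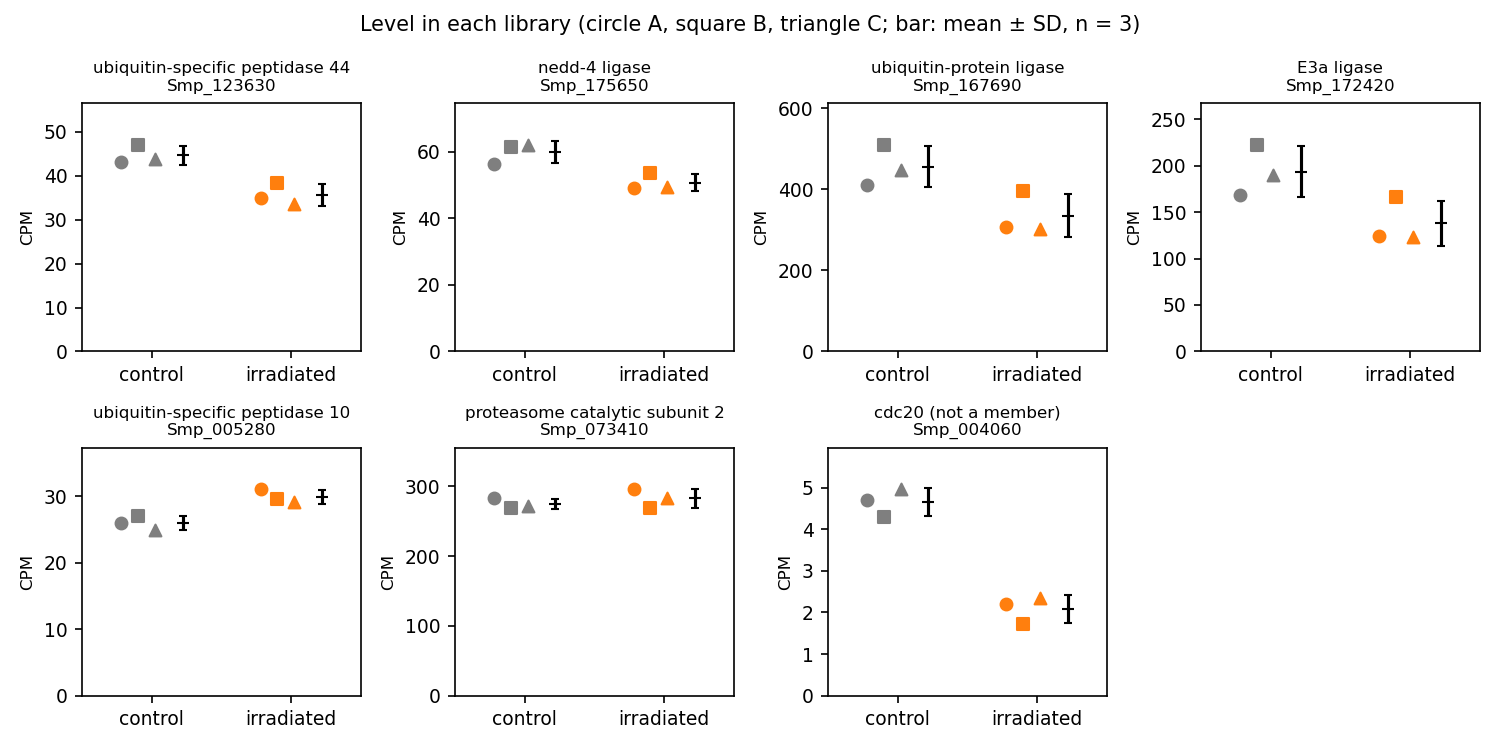
CPM in each library (circle A, square B, triangle C) for 6 ubiquitin and proteasome genes and the cell-cycle gene cdc20, with mean ± SD (n = 3) beside each group. USP44 has all irradiated points below all controls, USP10 has them above, the proteasome catalytic subunit 2 overlaps, and in Smp_167690 and the E3a ligase the squares are highest in both groups.

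Deubiquitinating enzymes were the other class with a call. Of 20 tested, 1 was called lower and 0 higher, beside 2.49% and 0.619% of all tested genes, so that a single call is near the background. At an unadjusted edgeR p under 0.05, 6 were lower (30%) and 2 higher (10%), beside 13.3% and 8.27% of all tested genes. In 1 enzyme (5%) every irradiated library lay below every control and in 3 (15%) above, beside 13.3% and 12%. In 14 enzymes the log2 fold change was below 0, and the class median was -0.04. Of all tested genes 4382 of 8885 lay below 0, and 41.1% to 94.5% in the length classes from 1000 bases of exon up.

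The called enzyme was USP44 (Smp_123630), which in human cells has been linked to the spindle checkpoint and to holding back the anaphase-promoting complex. It read 43.1, 47.1 and 43.8 CPM in controls and 35.0, 38.4 and 33.5 CPM in irradiated worms, so that the groups were clearly apart. The change was -0.33 (SE 0.07, adjusted p = 0.0350), and reads that span exon-exon joins gave -0.41 (adjusted p = 0.0283; 2.51% of all genes were called lower with such reads). Only leaving out control A or irradiated B kept the call, and the adjusted p rose to at most 0.143 when another library was left out.

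Several other enzymes had negative values that did not pass the test. USP9X (Smp_131570), a large enzyme with roles in cell polarity and signalling in other animals, read 86.7, 104 and 94.0 CPM in controls and 68.6, 88.2 and 70.4 CPM in irradiated worms, where irradiated B lay above control A (-0.33, SE 0.10, adjusted p = 0.112). A second gene with that name, Smp_153690, had a change of -0.26, USP24 (Smp_198740) one of -0.28 and USP22 (Smp_074400), part of a histone-modifying complex in human cells, one of -0.26. BAP1 (Smp_147920), which removes ubiquitin from histone H2A in fly and human cells, had a change of -0.23 (adjusted p = 0.153).

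The largest positive values of the class were also uncalled. USP10 (Smp_005280), which in human cells acts on p53, read 26, 27 and 24.9 CPM in controls and 31.1, 29.6 and 29.1 CPM in irradiated worms, without overlap (0.20, SE 0.06, adjusted p = 0.108). USP8 (Smp_152000), an enzyme of endosomal sorting, read 58.3, 61.7 and 60.9 CPM and 65.6, 66.7 and 64.9 CPM (0.13, SE 0.05, adjusted p = 0.162). The proteasome-bound enzymes UCH37 (Smp_083200) and USP14 (Smp_084740) had changes of 0.04 and 0.06, with standard errors of 0.06.

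None of the 30 tested proteasome genes was called in either direction. Their median log2 fold change was 0.04 and 26 lay above 0, or 21 with the exon length trend described below taken out. Of all tested genes 4503 of 8885 lay above 0. Below 0 lay 39.2% of all tested genes under 1000 bases of exon and 41.1% of those with 1000 to 2000. All 7 beta subunits had values between 0.02 and 0.10, the 7 alpha genes between -0.07 and 0.15, and the 11 non-ATPase cap genes between -0.03 and 0.12. The median standard error of the 25 core and cap subunits was 0.05, so most of these values lie within 2 standard errors of 0.

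Single subunits show how close the groups were. Catalytic subunit 2 (Smp_073410) read 283, 270 and 272 CPM in controls and 296, 269 and 284 CPM in irradiated worms, which overlap (0.04, SE 0.05, adjusted p = 0.639). S5a (Smp_000740) read 506, 490 and 509 CPM and 513, 476 and 513 CPM, a change of 0.00 whose sign depended on the scaling. The alpha 1 gene (Smp_170730) had the largest value of the core, with 168, 147 and 148 CPM against 180, 158 and 174 CPM (0.15, SE 0.07, adjusted p = 0.245). The cap gene Smp_047740 was the only proteasome gene whose groups were apart, at 107, 97.1 and 106 CPM against 115, 108 and 113 CPM (0.12, SE 0.05, adjusted p = 0.247).

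The proteasome genes farthest from 0 were not core subunits. Ecm29 (Smp_164430), a clamp and adaptor of the holoenzyme in yeast, read 12.9, 17.7 and 17.6 CPM and 11.1, 14.1 and 12.6 CPM, with overlap (-0.35, SE 0.14, adjusted p = 0.186). A weakly expressed gene related to the assembly chaperone P28 (Smp_003190) read 4.47, 3.72 and 3.77 CPM and 5.61, 4.49 and 3.97 CPM (0.24, SE 0.16, adjusted p = 0.415). The other P28-related gene, Smp_064320, had a change of 0.01.

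Genes that supply and carry ubiquitin or ubiquitin-like tags had no call either. All 4 modifier genes had positive values, from 0.07 to 0.12, or 0.02 to 0.07 with the exon length trend taken out. They have 436 to 755 bases of exon, and 39.2% of all tested genes under 1000 bases lay below 0. The 4 genes include the SUMO gene and a ubiquitin-fold modifier (Smp_091230) besides the genes named as ubiquitin. The ubiquitin gene Smp_017280 read 251, 229 and 228 CPM in controls and 262, 260 and 246 CPM in irradiated worms, with overlap (0.12, SE 0.05, adjusted p = 0.222). The main E1 gene Smp_162630 read 804, 822 and 818 CPM and 768, 797 and 783 CPM, without overlap but with a change of -0.06 (SE 0.04, adjusted p = 0.456). The 22 E2 genes ran from -0.07 to 0.12, with 16 above 0, or 9 with the exon length trend taken out.

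Some of these E2 genes have known roles in the cell cycle or DNA repair elsewhere. E2 C (Smp_051010) and E2 S (Smp_180170), which build chains for the anaphase-promoting complex in human cells, had changes of -0.01 and 0.06, with standard errors of 0.06 and 0.05. The 2 genes named rad6, an E2 of post-replication repair in yeast, had changes of 0.03 (Smp_169440) and 0.11 (Smp_118220), and the homologue of UBC13 (Smp_083400), which builds signalling chains in DNA repair in human cells, one of 0.02. The largest uncalled E2 value without overlap was that of the non-canonical E2 Smp_174670, at 119, 129 and 118 CPM against 130, 138 and 129 CPM (0.12, SE 0.05, adjusted p = 0.224). E2 C and a pair of other E2 genes, Smp_067980 and Smp_067990, had 81.6%, 78.1% and 84.8% unique reads, so similar genes may share their reads.

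Negative values went with exon length. All 6 genes with at least 6000 bases of exon, which are 4 ligases, USP9X (Smp_131570) and USP24, had negative values, with a median log2 fold change of -0.40. The 30 genes under 1000 bases had a median of 0.06. Over the 110 genes the Spearman correlation of log2 fold change with exon length was -0.554, beside -0.285 over all 8885 tested genes; both describe genes that share the same libraries. All tested genes showed the same direction: of 238 with at least 6000 bases, 225 had a negative value, with a median of -0.22 and 40.3% without overlap below the controls, and the 2990 genes under 1000 bases had a median of 0.04. Ligases and deubiquitinating enzymes are the long genes of the machinery, with median exon lengths of 3331 and 2815 bases, against 1218 for proteasome genes and 945.5 for E2 genes.

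**Figure D4:**
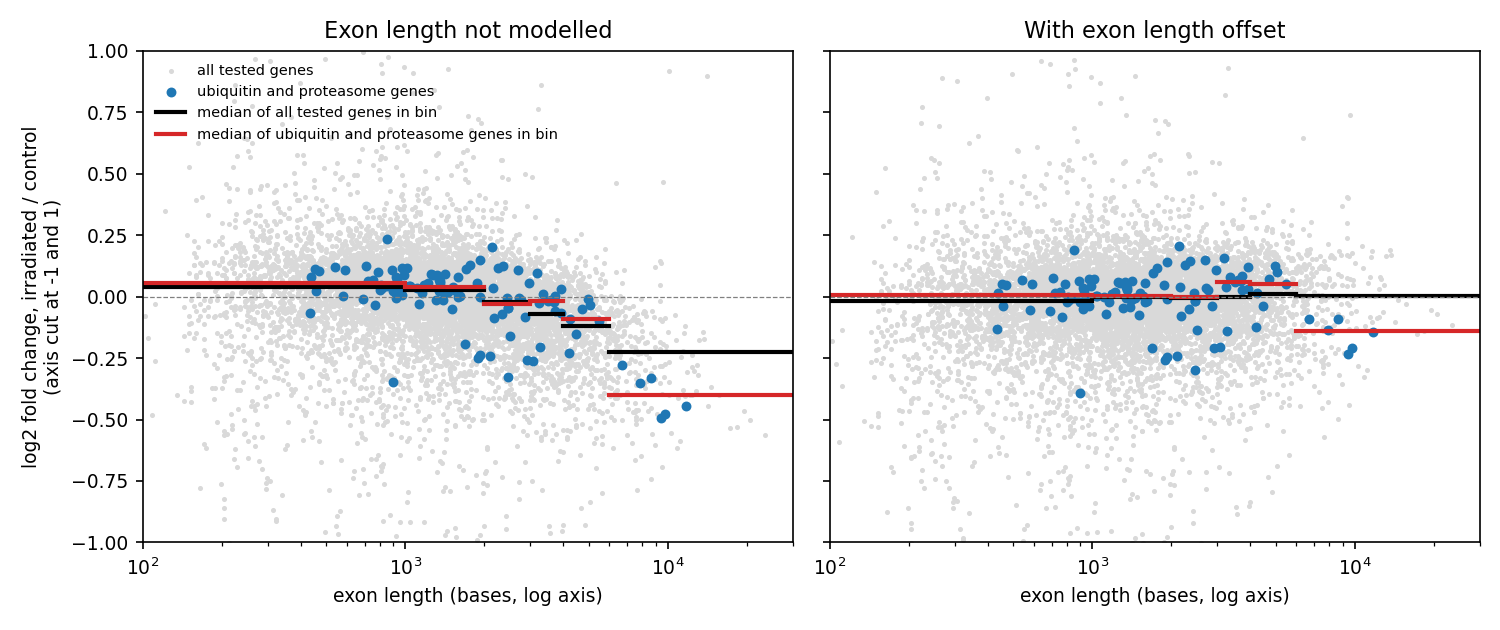
Log2 fold change (irradiated over control) against exon length (bases, log axis) for all tested genes (grey) and ubiquitin and proteasome genes (blue), with bin medians in black and red, before (left) and after (right) an exon length trend was fitted in each library; the vertical axis stops at -1 and 1. On the left the last red and black bars lie at -0.40 and -0.22, and on the right at -0.14 and 0.00.

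Length also separated libraries within a group. Taken as the deviation of log2 CPM from each gene's mean, the 6 long genes had medians of 0.07, 0.34 and 0.21 in controls A, B and C and of -0.34, 0.05 and -0.30 in irradiated A, B and C. Library B was thus the highest of its group in both, in 5 of the 6 long genes and in 83.6% of all 238 long genes. Leaving out irradiated B raised the calls to 11 ubiquitin and proteasome genes lower (8.09% of all genes), and leaving out control A to 7 (4.02%). What set these libraries apart was not tested.

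**Figure D5:**
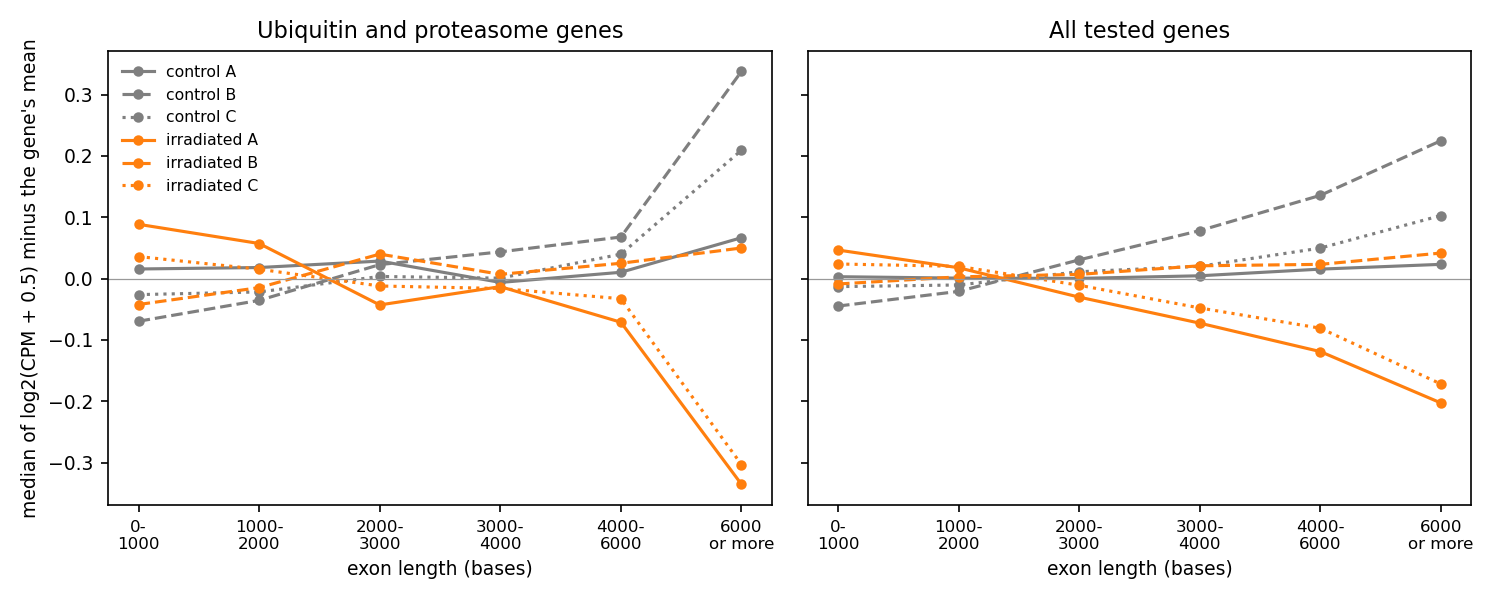
Median deviation of log2(CPM + 0.5) from each gene's mean over the 6 libraries, by exon length class, for ubiquitin and proteasome genes (left) and all tested genes (right); controls are grey, irradiated libraries orange, and line styles mark A, B and C. In the longest class control B lies highest and irradiated A and C lowest in both panels, and irradiated B lies near control A.

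When a smooth trend on exon length was fitted in each library and taken out, a step chosen after seeing the data, both called genes were still called. USP44 then changed by -0.30 (adjusted p = 0.0193), and nedd-4 Smp_175650 was also called (-0.24, adjusted p = 0.0379). That made 3 genes lower and 0 higher, beside 3.17% and 1.18% of all tested genes. The long genes moved toward 0, the called ligase included. Among the uncalled, Smp_167690 moved to -0.14, the E3a ligase Smp_172420 to -0.23, Smp_176060 to -0.14, USP9X (Smp_131570) to -0.09 and USP24 (Smp_198740) to -0.09, and these stayed uncalled. The class medians drew together, to -0.01 for ligases, -0.02 for deubiquitinating enzymes, 0.02 for proteasome genes and -0.01 for E2 genes.

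Genes of the same or related pathways whose names hold neither word were taken by a list of name patterns. It matched 63 genes, of which 61 were tested. Of these 1 was called lower (1.64%) and 0 higher, beside 2.49% and 0.619% of all tested genes. The median log2 fold change of the 61 genes was -0.02. The 6 genes named 26S protease regulatory subunit, the ATPases that unfold substrates in the cap, had changes of -0.01 to 0.07 and none was called. Cullins, the scaffolds of the largest ligase family, gave 7 genes between -0.10 and 0.06, none called. The 8 tested kelch genes had a median of -0.09. In 3 of them (37.5%) the irradiated libraries lay below all controls, beside 24.0% of all tested genes with 3000 to 4000 bases of exon. The 2 SUMO ligases both changed by -0.27, and 11 RING finger genes ran from -0.27 to 0.10, none called. At an unadjusted edgeR p under 0.05, 7 of the 61 were lower (11.5%) and 0 higher, beside 13.3% and 8.27% of all tested genes.

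The called gene was cdc20 (Smp_004060), which brings mitotic substrates to the anaphase-promoting complex in yeast and animals. It read 4.70, 4.29 and 4.97 CPM in controls and 2.20, 1.71 and 2.34 CPM in irradiated worms. Every irradiated library lay far below every control, a 2.21-fold difference (log2 fold change -1.14, SE 0.15, adjusted p = 0.00253). The other gene of that family, a fizzy-related gene (Smp_132020), whose kind acts after mitosis in flies, had a change of 0.01. Of the complex itself, the genes named as anaphase-promoting subunits had changes of -0.05 (Smp_152400) and 0.11 (Smp_028430, subunit 11).

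Ubiquitin is also made fused to ribosomal protein L40, and the 3 genes named so were left out by the choice of names. Smp_009580 stood above every gene described here, at 5264 ± 201 CPM in controls and 5201 ± 247 CPM in irradiated worms (SD, n = 3), a change of -0.02. The second, Smp_046690, had 24.0% unique reads, so its level of 1590 CPM in controls may largely be shared, and the third, Smp_089430, had a change of 0.15 (adjusted p = 0.224).

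In the authors' deposited table, 6 of the 114 genes (5.26%) were lower and 3 (2.63%) higher at a p-value under 0.05 as the authors give it, beside 6.73% and 6.64% of all genes with exons. None of the 6 fell by 2-fold or more.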

How the data were processed

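RNA was sequenced from 3 control and 3 irradiated pools with a TruSeq kit, in 1 lane with 100 cycles, per the labels' protocols. Per the file headers, the authors' deposited table gives whole-number read counts per gene (exon reads in all and unique ones, reads over the whole gene, reads across exon joins), RPKM, exon lengths, and their own fold change and p-value. Which aligner, counter and genome build were used is not given in the sources used here, hence no coordinates or sequences are given. Nothing says that the kit marks strand: reads of genes that overlap on both strands cannot be told apart.

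Exon counts were kept with filterByExpr, scaled with TMM and compared by edgeR 4.0.16 quasi-likelihood models (R 4.3.3); Benjamini-Hochberg adjustment covered the 8885 tested genes. A standard error is the unshrunken log2 change over the square root of its F statistic. DESeq2 1.42.0 served as another fit of the deposited counts, and limma 3.58.1 of log2(RPKM + 0.5) and log2(RPKM + 0.1). The exon length trend was a lowess fit per library (span 0.3, over genes whose mean log2 CPM was 3 or more), entered as an offset. On simulated counts over 8856 genes edgeR found 72% of the genes set to change by 1.25-fold and 92% at 1.5-fold, and 10 of its 192 calls were false. Whether these shares hold for the deposited libraries, where changes went with exon length, was not tested. There, 7 ubiquitin and proteasome genes had log2 fold changes beyond 0.3 in size, and 2 of them were called. Smp_172420, at 1.41-fold lower, was not called (edgeR adjusted p = 0.0739).

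Roles came from product names, and 7 were corrected by identifier. Of the 114 genes 98 matched the RefSeq table of assembly ASM23792v2, used only for neighbours. The genes, lists and markers were chosen with earlier results of these data known. Named genes were those called; the highest mean RPKM of each class; up to 4 uncalled falls and rises with no overlap between groups; those nearest the threshold; those with under 90% unique reads; and called genes of the outside list. One called ligase is not reported here by name. Other genes named were chosen after their values were seen.

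Alternatives were RLE and upper-quartile scaling, other filters and read types, the replicate letter as a block, and leaving out each library. The floor of 3 reads covers counting error only, while standard errors and SDs rest on the spread among the pools.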

Additional observations from a re-analysis of the deposited data

How the results depend on the processing

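USP44 was called under 11 of 19 alternatives, always with a negative change (-0.41 to -0.28), and cdc20 under all 18 that gave it a value. Against 2 ubiquitin and proteasome genes called lower, there were 0 with a minimum of 5 CPM in 3 libraries and with limma at either pseudocount, 1 with gene reads, 6 with DESeq2, 14 with a replicate block, 7 with a replicate block and exon length offset (1 higher), and 0 to 11 with a library left out. The letters are not stated to pair pools, same-letter deviations correlated at 0.04 (A), 0.18 (B) and -0.10 (C), and not every library was closest to its own letter. Over all tested genes the calls lower and higher were 77 and 26 with the minimum of 5 CPM, 490 and 127 with DESeq2, 851 and 277 with the replicate block, 556 and 216 with block and offset, 119 to 723 and 16 to 129 with a library left out; 105 were higher with the offset, and 140 and 139 lower with limma at pseudocounts of 0.5 and 0.1. The cause was not tested. The median of the tested ubiquitin and proteasome genes was 0.0469 with upper-quartile scaling, which raised the median of all genes to 0.03, and 0.0437 and 0.0440 with limma. That of the outside list was 0.0138, 0.0124 and 0.0126 under the same settings, -0.0235 and -0.0260 with the offset without and with the block, and -0.0246 to -0.0017 with a library left out. Uncalled log2 fold changes near 0 changed sign. S5a (Smp_000740) was 0.0264 with upper-quartile scaling, 0.0340 with gene reads, 0.0229 with limma at both pseudocounts and -0.0196 to 0.0321 without a library; E2 C (Smp_051010) was 0.0191, 0.0261, 0.0151 and 0.0152, and -0.0396 to 0.0236; Smp_067980 was 0.0231, 0.0315, 0.0191 at both and -0.0485 to 0.0264. Smp_067990 was -0.0048 with exon-exon reads and -0.0064 to 0.1147 without a library. With the offset, and with block and offset, alpha 7 (Smp_076230) was -0.0191 and -0.0192 (-0.0082 to 0.0663 without a library), USP7 (Smp_089180) 0.0720 and 0.0721, E1 (Smp_162630) 0.0251 at both, Smp_196510 -0.0375 and -0.0373 (-0.0247 to 0.0376 without a library), and nedd-4-like Smp_123180 0.0615 and 0.0611 (0.0082 with upper-quartile scaling, 0.0054 and 0.0055 with limma, -0.0355 to 0.0042 without a library).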

Other observations

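A ubiquitin or proteasome term of the Gene Ontology in the deposited table marks 147 genes with exons beyond those chosen by name. This list was chosen after seeing the data and shares genes with the outside list. Of its 143 tested genes 2 were called lower (1.4%, beside 2.49% of all tested genes) and 0 higher. Its median log2 fold change was -0.01. The larger fall was that of Smp_141160, named only as a hypothetical protein and annotated with the ubiquitin cycle and ligase activity. It read 3.10, 2.84 and 2.85 CPM in the controls and 0.473, 0.417 and 0.334 CPM in the irradiated libraries, on 198 and 31 exon reads in all. Every irradiated library lay far below the controls (log2 fold change -2.82, SE 0.20, edgeR adjusted p = 4.07e-05). The other was Smp_196120, a gene of 7293 bases of exon related to the transcription cofactor TRRAP, with a change of -0.60 (adjusted p = 0.0431).

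Of the other pairs of consecutive genes, the E3 genes Smp_138440 and Smp_138450 had changes of -0.15 and -0.16, and the E1C genes Smp_211070 and Smp_211080 had changes of 0.07 and 0.01. The alpha 6 genes Smp_130110 and Smp_207080 had changes of -0.07 and 0.05. None of these was called.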
